A study of Mus musculus with 76 samples.

Results

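The 9 endoderm lineage genes described here were followed through the differentiation of mouse embryonic stem cells into neurons: the transcription factors Gata4, Gata6, Sox17, Foxa2 and Hnf4a, the secreted proteins Afp, Ttr and Apoa1, and the endocytic receptor Cubn. They were taken by symbol from a table of 38924 Ensembl genes, and all 9 were found in it. The stem cells were of the strain C57BL/6J, called B6 below, or of WSB/EiJ, called WSB, and polyadenylated RNA was sequenced from bulk cultures at a neural progenitor stage, at neuronal maturation and at a stage at which axons were cut. Cultures had been left as controls or given ID-8, which inhibits the kinase Dyrk1a. The dose and timing of ID-8 and the number of stem cell lines behind each strain were not given in the sources used here. The 76 sequenced samples made 70 libraries in 16 groups. Control and ID-8 progenitors of each strain had 6 libraries a group, and control and ID-8 maturation cultures of each strain had 4. At the axon stage each strain had uncut control, cut control, uncut ID-8 and cut ID-8 cultures, with 4 libraries a group except uncut WSB with ID-8 and cut B6 with ID-8, which had 3. The deposited table names cultures for the axon stage and for part of the progenitor libraries. The labels do not say how independent the replicates were, so the p-values measure only the spread between these libraries, which may be technical.

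Endoderm is the germ layer of gut, liver and pancreas, and it has an earlier extraembryonic counterpart, the primitive endoderm, which forms the parietal and visceral endoderm of the yolk sac. Gata6, Gata4 and Sox17 are among the factors that specify primitive endoderm, and Foxa2 and Hnf4a act in visceral endoderm and later in liver, where Afp, Ttr and Apoa1 are secreted targets. Cubn encodes cubilin, which takes up protein and lipoprotein with its partners amnionless (Amn) and megalin (Lrp2) at the surface of visceral endoderm and kidney tubule. Several of the genes also work elsewhere: Foxa2 in the floor plate of the neural tube, Ttr in the choroid plexus of the brain, Gata4 and Gata6 in heart mesoderm and Sox17 in endothelium.

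Promoters of 3 members that were low in control B6 progenitors and were called higher together with ID-8 are shown first. The windows run from 250 bases before to 50 bases after each RefSeq start site (GRCm38.p6), and the table of promoters held 5 of the 9 members in 8 windows. Capitals mark letters found on either strand: AGATAA or TGATAA for GATA factors, TGTTTAC or TGTTTGC for FOXA factors and CAAAGTCCA for HNF4. No matches overlapped. Of 32851 promoters of this length, 18.6% held the GATA letters, 8.48% the FOXA letters and 0.475% the HNF4 letters.
Afp promoter, chr5:90490464-90490763 (+): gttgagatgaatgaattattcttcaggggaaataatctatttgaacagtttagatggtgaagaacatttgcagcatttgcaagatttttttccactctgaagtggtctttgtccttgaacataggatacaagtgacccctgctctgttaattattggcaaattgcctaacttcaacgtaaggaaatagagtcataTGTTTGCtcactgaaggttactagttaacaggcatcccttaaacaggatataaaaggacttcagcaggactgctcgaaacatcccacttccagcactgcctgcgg
Hnf4a upstream promoter, chr2:163506607-163506906 (+): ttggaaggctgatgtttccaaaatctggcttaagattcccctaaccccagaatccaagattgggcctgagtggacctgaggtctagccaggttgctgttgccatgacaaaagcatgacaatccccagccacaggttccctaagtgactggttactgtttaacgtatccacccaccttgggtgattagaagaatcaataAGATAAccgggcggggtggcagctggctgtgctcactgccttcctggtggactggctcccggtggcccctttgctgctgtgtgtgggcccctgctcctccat
Apoa1 promoter, chr9:46228380-46228679 (+): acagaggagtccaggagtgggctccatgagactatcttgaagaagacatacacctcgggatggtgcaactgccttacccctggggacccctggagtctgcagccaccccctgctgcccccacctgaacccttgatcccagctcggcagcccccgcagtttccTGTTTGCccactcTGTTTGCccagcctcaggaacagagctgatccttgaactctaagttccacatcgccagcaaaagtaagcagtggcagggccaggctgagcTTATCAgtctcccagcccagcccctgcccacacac
The Afp window held 1 FOXA match, 55 bases before the start site. The upstream Hnf4a window held 1 GATA match, 52 bases before the start site, and its downstream window (chr2:163546905-163547204), not shown, held none. The Apoa1 window held 2 FOXA matches, 88 and 75 bases before the start site, and 1 GATA match 15 bases after it. Of the 3 Foxa2 windows 1 (chr2:148045415-148045714) held 1 GATA match, and the other two held none, like the Cubn window (chr2:13491827-13492126). No window held the HNF4 letters. These matches describe the sequence and are not evidence of binding.

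On GRCm38, Gata4 lies at chr14:63198922-63271692 (-), Gata6 at chr18:11052064-11085635 (+), Sox17 at chr1:4490931-4497354 (-), Foxa2 at chr2:148042877-148046969 (-) and Hnf4a at chr2:163506808-163572910 (+). Ttr lies at chr18:20665280-20674321 (+), Afp at chr5:90490737-90508907 (+), Apoa1 at chr9:46228580-46230466 (+) and Cubn at chr2:13276338-13491813 (-). All 9 are protein-coding genes, and the values are sums over their exons. Gata6 and Cubn overlap a gene on the opposite strand, 1010001N08Rik and Gm13270, which held 1073 and 417 counts in all against 32421 and 341140 for the members. Sox17 and Afp overlap Gm37587 and Gm43449 on the opposite strand, which have no values among the deposited genes. Hnf4a overlaps Hnf4aos on the opposite strand and the snRNA Gm25881 on its own, each with 0 counts. Whether strand was used in counting was not given in the sources used here. Of the 31-base stretches in each member's transcripts at most 0.338% (Foxa2, shared with Foxa1) occur in another gene.

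Library totals ran from 20.37 to 131.5 with a median of 37.42, in units of 1e6 counts. Levels are in CPM, counts per 1e6 counts of a TMM-scaled total, and intervals or floors drawn from counts cover counting error only. A count of 0 allows up to 3 counts, which was 0.0238 to 0.12 CPM at the progenitor stage, 0.0728 to 0.119 at maturation and 0.0285 to 0.171 at the axon stage. The library numbers in the titles fall into 3 blocks. Progenitor replicates 1 to 3 of each group are in the first and 4 to 6 in the second, whereas all maturation libraries and 1 WSB culture set of the axon stage are in the third. The 8 neural progenitor genes, a list that includes Sox2, which pluripotent cells also express, summed to 1570 to 2708 CPM in control B6 progenitors, 825 to 2937 with ID-8, 1775 to 2877 in control WSB progenitors and 1792 to 3432 with ID-8. The strain labels of the 30 axon libraries were checked with 28 genes higher in B6 and 99 higher in WSB, chosen after the data were seen, that separate the strains by over 1 on the log2(CPM + 0.5) scale in every progenitor and maturation library. Of the 30, 1 library went against its label: the library labelled WSB, cut, with ID-8, replicate 3, was on the B6 side in all 28 and on the WSB side in 0 of the 99. Across 12909 genes it was most like the uncut ID-8 library of a B6 culture, called set B2 below (Pearson r = 0.991 of log2 values, a description). That set has no library labelled cut with ID-8. It stays in the group its label gives, and results that rest on it are given with and without it.

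With ID-8, B6 progenitors had more RNA of 8 of the 9 genes, from the GATA factors to cubilin, and the secreted proteins Ttr and Apoa1 went from near 0 to as much as 25.7 and 28.9 CPM. Foxa2 alone was not called. In bulk RNA a larger number of cells of a type and more RNA per cell cannot be told apart. A gene was called when edgeR's quasi-likelihood test gave a Benjamini-Hochberg adjusted p under 0.05 over all 17249 genes tested. By that rule 18.4% of all genes were higher and 22.0% lower in this contrast, so a gene called higher was common. The median log2 difference was 4.93 over the 9 members and -0.04 over all genes tested. Ttr, Afp and Apoa1, near 0 in controls of both strains, passed the low-count filter through libraries with ID-8. So did Hnf4a, which was low in controls of both strains. Genes that pass in this way tend to read as higher, so the members and all genes are not compared like for like.

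Gata4, a zinc finger factor of primitive endoderm and heart, ranged over 6 control B6 libraries from 1.28 CPM through a median of 4.83 to 7.71, and over 6 ID-8 libraries from 19.8 through 84.8 to 156. The groups did not overlap, and the log2 difference was 4.20 ± 0.55 (SE, edgeR adjusted p = 1.08e-05). Gata6, its close relative, went from 0.566, 3.25 and 5.05 CPM (lowest, median and highest) to 13.2, 45.5 and 79.5, again without overlap, with a log2 difference of 3.90 ± 0.50 (edgeR adjusted p = 9.82e-06). Sox17, an SRY-box factor, read 0.32, 1.25 and 1.83 CPM in controls and 3.87, 18.1 and 32.8 with ID-8. Every ID-8 library was above every control, and the log2 difference was 3.93 ± 0.54 (edgeR adjusted p = 1.76e-05). In all 3 of these early factors ID-8 replicate 6 was the highest library and replicate 4 the lowest.

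Hnf4a, a nuclear receptor of visceral endoderm and liver, read 0, 0.203 and 0.729 CPM in control B6 progenitors and 2.86, 16.7 and 33.6 with ID-8. The groups did not overlap and the log2 difference was 5.90 ± 0.84 (edgeR adjusted p = 2.72e-05). Foxa2, a forkhead factor shared by endoderm and floor plate, read 12.7, 19.7 and 35.6 CPM in controls and 7.9, 19.5 and 29.7 with ID-8. The Foxa2 ranges overlapped almost entirely, and the log2 difference of -0.33 ± 0.43 was not called (edgeR adjusted p = 0.57). Within ID-8 cultures, though, Foxa2 followed the other members: all 9 were lowest in replicate 4 and second lowest in replicate 1.

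The secreted proteins were at or near 0 in controls. Ttr, which carries thyroxine and retinol-binding protein, read 0, 0.0425 and 0.187 CPM in control B6 libraries (30 counts in all, with 2 libraries at 0) and 0.864, 11.2 and 25.7 with ID-8. Apoa1, the main protein of HDL, read 0, 0.0663 and 0.13 CPM in controls (24 counts, 2 libraries at 0) and 0.209, 11.0 and 28.9 with ID-8. Neither gene's groups overlapped, although the lowest ID-8 library of Apoa1 held only 7 counts. The fitted log2 differences were 7.07 ± 0.94 for Ttr (edgeR adjusted p = 1.32e-05) and 7.53 ± 1.19 for Apoa1 (edgeR adjusted p = 7.66e-05), and their size depends on the prior count because the controls are so low. Afp, the fetal serum protein of yolk sac and liver, read 0, 0.0767 and 0.0917 CPM in controls and 0, 1.6 and 7.98 with ID-8. ID-8 replicate 4 had 0 Afp counts and lay within the control range, and the other 5 lay above it; the log2 difference was 5.52 ± 1.00 (edgeR adjusted p = 0.000267). In the second library block alone Afp was below the low-count filter and not tested, and the other 7 genes were called.

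Cubn was the most abundant of the 9 with ID-8, both in CPM and per kilobase of exon. It read 5.83, 11.9 and 81.6 CPM in control B6 progenitors and 114, 792 and 1980 with ID-8, with no overlap, and the log2 difference was 4.93 ± 0.97 (edgeR adjusted p = 0.000523). Control replicate 6, at 81.6 CPM, stood above the other controls. Per kilobase of exon, a scale on which genes can be compared, the mean ID-8 levels were 60.9 ± 43.7 CPM per kb for Cubn (SD, n = 6), 22.5 ± 14.4 for Gata4, 10.6 ± 9.99 for Apoa1, 10.1 ± 8.13 for Ttr, 7.92 ± 3.90 for Foxa2, 7.11 ± 4.14 for Gata6, 3.85 ± 2.26 for Sox17, 3.39 ± 2.48 for Hnf4a and 0.826 ± 0.939 for Afp. In control B6 progenitors Foxa2 led instead, at 9.35 ± 3.57 CPM per kb, ahead of Cubn at 1.67 ± 1.99 and Gata4 at 1.20 ± 0.527.

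**Figure D1:**
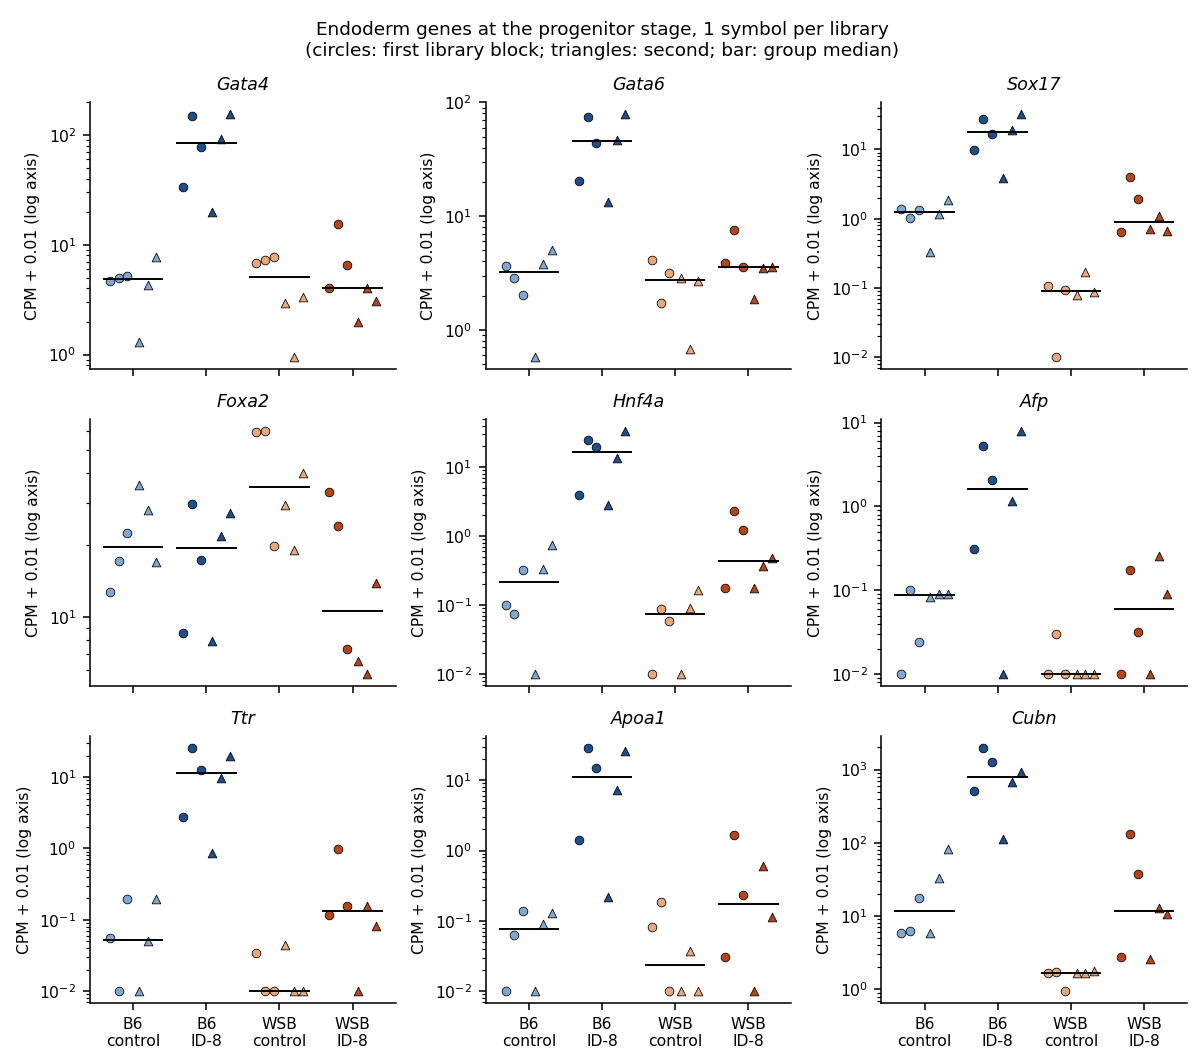
Level of each of the 9 endoderm genes in the 24 progenitor libraries, as CPM plus 0.01 on a log axis, by strain and treatment. Each symbol is 1 library (circles from the first library block, triangles from the second) and each bar a group median; in B6 the ID-8 symbols lie above the control symbols for Gata4, Gata6, Sox17, Hnf4a, Ttr, Apoa1 and Cubn, while those of Foxa2 overlap.

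In WSB progenitors ID-8 raised 3 of the 9 genes, Sox17, Hnf4a and Cubn, and lowered Foxa2. Gata4 and Gata6 were not called. Over all genes 4.70% were called higher and 4.86% lower, and the median log2 difference was 3.60 over the members against 0.00 over all genes. That median is the fitted value of Afp, which rests on 1 count in controls and depends on the prior count. Sox17 read 0, 0.0792 and 0.161 CPM in control WSB libraries, 19 counts in 6 libraries, and 0.633, 0.892 and 3.95 with ID-8. The groups did not overlap, the log2 difference was 4.12 ± 0.68 (edgeR adjusted p = 0.000646), and the ID-8 median was still below the median of B6 controls.

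Cubn in WSB read 0.936, 1.67 and 1.75 CPM in controls and 2.61, 11.8 and 133 with ID-8, without overlap, and the log2 difference was 4.21 ± 0.99 (edgeR adjusted p = 0.00953). The ID-8 libraries ranged widely: replicate 2 was at 133 CPM, replicate 3 at 37.8 and the 4 others at or under 12.8. Hnf4a read 0, 0.0643 and 0.153 CPM in controls and 0.166, 0.42 and 2.29 with ID-8, a log2 difference of 3.64 ± 0.98 (edgeR adjusted p = 0.0218). The Hnf4a call was lost without ID-8 replicate 2 (log2 difference 3.00, edgeR adjusted p = 0.058) and without control replicate 2 (3.77, edgeR adjusted p = 0.052). Foxa2 read 19.0, 35.0 and 60.4 CPM in controls and 5.74, 10.6 and 33.3 with ID-8, and the groups overlapped. Foxa2 fell by 1.42 ± 0.44 on the log2 scale (edgeR adjusted p = 0.0443), a call that was lost without any 1 of 8 of the 12 libraries, with adjusted p from 0.0685 to 0.119.

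Gata4 in WSB read 0.938, 5.12 and 7.78 CPM in controls and 1.95, 4.03 and 15.5 with ID-8, and Gata6 read 0.67, 2.76 and 4.11 against 1.85, 3.54 and 7.59. Both pairs of groups overlapped, with log2 differences of 0.23 ± 0.50 for Gata4 (edgeR adjusted p = 0.836) and 0.60 ± 0.47 for Gata6 (edgeR adjusted p = 0.465). The secreted proteins stayed under 2 CPM in every WSB progenitor library. Ttr had 2 counts over the 6 control libraries and 80 over the 6 with ID-8 (edgeR adjusted p = 0.0601), Afp had 1 and 30 (edgeR adjusted p = 0.212), and Apoa1 had 13 and 137 (edgeR adjusted p = 0.155). The fitted differences of Ttr and Afp are no measure of size, since their controls were at or under the floor. ID-8 replicate 2 was the highest WSB library for Gata4, Gata6, Sox17, Ttr, Hnf4a, Apoa1 and Cubn.

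Without the second block, the first library block called Sox17 and Cubn in WSB, and the second block alone called none of the 9. Control and ID-8 libraries with the same replicate number deviated together in the first block, and with that number as a block the calls there were Sox17 and Hnf4a, with Cubn at an edgeR adjusted p of 0.0546. In the second block the deposited table names the cultures, and with these pairs as a block, a fit added after seeing the data, Sox17 (2.93 ± 0.30, edgeR adjusted p = 0.00716), Cubn (2.16 ± 0.41, edgeR adjusted p = 0.0334) and Apoa1 (4.33 ± 0.75, edgeR adjusted p = 0.0291) were called higher.

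**Figure D2:**
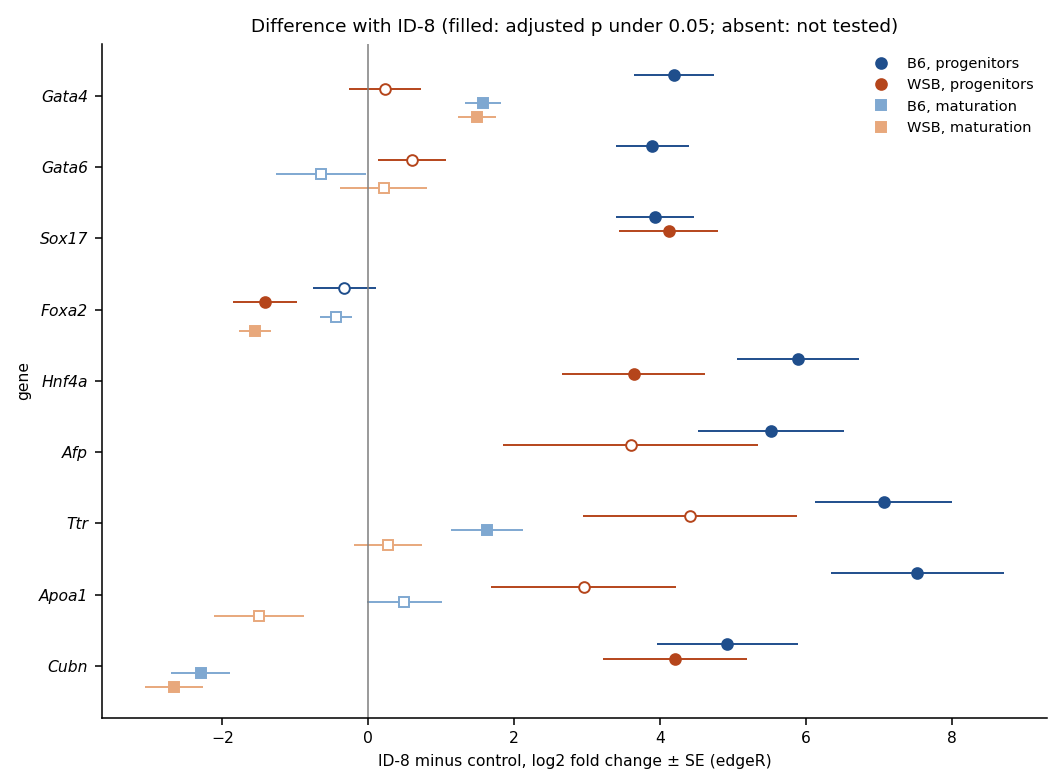
Log2 difference between ID-8 and control for each endoderm gene in B6 and WSB, at the progenitor and maturation stages, with bars of 1 SE. Filled symbols had an edgeR adjusted p under 0.05. At the progenitor stage Gata4 stands at 4.20 in B6 and 0.23 in WSB. Sox17 stands at 3.93 and 4.12, the latter from WSB controls near 0.

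The strains were also set against each other directly. In control progenitors WSB had less Sox17, by 3.88 ± 0.68 on the log2 scale (edgeR adjusted p = 9.88e-05), and less Cubn, by 4.14 ± 0.97 (edgeR adjusted p = 0.00169), in a contrast where 25.0% of all genes were lower. The Cubn difference in the first block alone was -2.80 ± 1.02 (edgeR adjusted p = 0.0635). Gata4 and Gata6 were not called between control strains, with log2 differences of -0.11 ± 0.50 and -0.26 ± 0.47 (edgeR adjusted p = 0.883 and 0.676). Among ID-8 progenitors the same 8 genes that ID-8 raised in B6 were lower in WSB, where 34.0% of all genes were lower. The log2 differences ran from -3.55 ± 0.49 for Gata6 (edgeR adjusted p = 3.09e-06) to -5.82 ± 0.86 for Ttr (edgeR adjusted p = 6.18e-06), and Foxa2 was not called at -0.36 ± 0.44 (edgeR adjusted p = 0.47). These contrasts share libraries with the ID-8 contrasts above.

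The difference in response between the strains was tested as an interaction. It was more negative in WSB for Gata4, by 3.97 ± 0.72 on the log2 scale (edgeR adjusted p = 0.00567), and for Gata6, by 3.30 ± 0.66 (edgeR adjusted p = 0.0106), where 1.76% of all genes were called more negative. For Sox17 the interaction was 0.19 ± 0.74 and for Cubn -0.72 ± 1.20 (edgeR adjusted p = 0.901 and 0.75), although both genes stood far apart in level between the strains. Hnf4a (-2.25 ± 1.42), Apoa1 (-4.58 ± 1.97) and Foxa2 (-1.09 ± 0.61) were not called, nor were Ttr and Afp, whose estimates rest on near-empty controls (edgeR adjusted p from 0.176 to 0.841 for the 5). The estimates of Sox17, Hnf4a and Apoa1 also depend on the prior count, since WSB controls held only 19, 14 and 13 of their counts in 6 libraries. With 3 libraries a group, neither library block alone called any of the 9. The Gata4 estimate was -3.86 ± 0.71 in the first block and -4.00 ± 1.09 in the second (edgeR adjusted p = 0.208 and 0.222), and -3.86 ± 0.55 with the replicate number as a block (edgeR adjusted p = 0.0561).

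Other genes of the lineage moved with the members in B6. The lists were chosen with earlier results of these libraries known, so they are described by counts and medians and compared with nothing by a test. All 17 visceral endoderm genes were higher with ID-8 in B6 progenitors, with a median log2 difference of 4.07. Among them the cubilin partners Amn and Lrp2 rose by 5.84 ± 0.74 and 2.92 ± 0.40, the endocytic adaptor Dab2 by 4.63 ± 0.55 and apolipoprotein B (Apob) by 5.98 ± 0.90 on the log2 scale (edgeR adjusted p from 3.96e-06 to 4.54e-05). In mean level Amn went from 0.734 ± 0.349 to 43.9 ± 31.0 CPM and Lrp2 from 47.3 ± 17.6 to 432 ± 279 (SD, n = 6). In WSB 6 of the 17 were higher and none lower, with a median of 1.82; Amn (2.61 ± 0.73, edgeR adjusted p = 0.0269) and Apob (4.21 ± 1.02, edgeR adjusted p = 0.012) were called, and Lrp2 and Dab2 were not.

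Of 14 genes of primitive and parietal endoderm, 11 were higher and 1 lower in B6 with ID-8, with a median of 2.22. Sox7, a relative of Sox17, rose by 4.44 ± 0.59 on the log2 scale, the growth factor receptor Pdgfra by 2.68 ± 0.38, and the laminin chains Lama1 and Lamb1, which build the basement membrane, by 2.89 ± 0.41 and 2.31 ± 0.37 (edgeR adjusted p from 1.28e-05 to 9.20e-05). The 1 lower gene was Plat, tissue plasminogen activator (-0.92 ± 0.19, edgeR adjusted p = 0.000881), named after its value was seen. In WSB 1 of the 14 was called higher, Sox7 (3.17 ± 0.64, edgeR adjusted p = 0.00308), and 1 lower, again Plat (-0.62 ± 0.19, edgeR adjusted p = 0.044), with a median of 0.26. Of 13 tested genes of definitive endoderm and gut, 7 were higher and 3 lower in B6 and 4 higher and 1 lower in WSB. Eomes, a T-box factor, rose by 2.87 ± 0.43 in B6 and 3.28 ± 0.48 in WSB (edgeR adjusted p = 4.63e-05 and 0.000285) and Gsc by 1.74 ± 0.50 in B6 (edgeR adjusted p = 0.00866). Cxcr4, a chemokine receptor of definitive endoderm, was not called in either strain (edgeR adjusted p = 0.129 and 0.277), and Foxa1 fell by 2.48 ± 0.46 in B6 and 1.59 ± 0.44 in WSB (edgeR adjusted p = 0.000313 and 0.0246). Of 13 hepatocyte genes 4 passed the low-count filter, of which 2 were higher in B6, Fgb, a fibrinogen chain (2.64 ± 0.81, edgeR adjusted p = 0.0131), and F2, prothrombin (2.65 ± 0.54, edgeR adjusted p = 0.000719), and 1 in WSB, F2 (2.88 ± 0.77, edgeR adjusted p = 0.0205). Their sum ran from 3.3 to 7.45 CPM in B6 controls and from 5.78 to 21.8 with ID-8. Albumin (Alb), the defining product of hepatocytes, was not among those tested and read 0.00792 ± 0.0129 CPM in ID-8 B6 progenitors, below the floor.

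**Figure D3:**
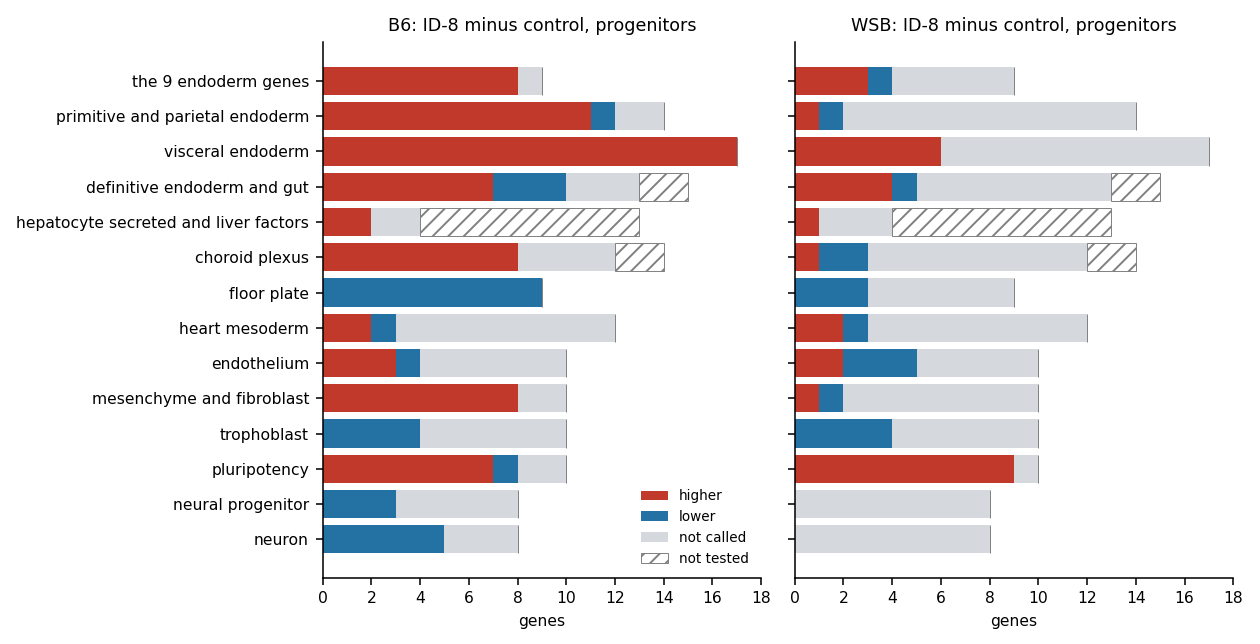
Number of genes in each list called higher, called lower, not called and not tested with ID-8 in B6 and WSB progenitors (edgeR adjusted p under 0.05). In B6 all 17 visceral endoderm genes are higher and all 9 floor plate genes lower.

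Lists for other sources of the same RNAs were counted in the same way, and each count stands beside 18.4% higher and 22.0% lower of all genes in B6 and 4.70% and 4.86% in WSB. Of 9 floor plate genes, which include Foxa1 and Shh of the gut list, all 9 fell in B6 (median -3.11), and 3 fell in WSB (median -1.38). Beside them, Foxa2 was tested but not called in B6 and fell in WSB. Shh, the floor plate signal, fell by 4.99 ± 0.61 in B6 (edgeR adjusted p = 5.86e-06), and the summed level of the list ran from 822 to 2553 CPM in B6 controls and from 260 to 675 with ID-8. Of 12 tested choroid plexus genes 8 rose in B6 and 4 were not called (median 2.3), and in WSB 1 rose and 2 fell (median 0.48). Otx2 rose in both strains (3.71 ± 0.58 in B6 and 3.10 ± 0.59 in WSB, edgeR adjusted p = 6.28e-05 and 0.0022). Kl was among those not called in B6, at -0.12 ± 0.40 (edgeR adjusted p = 0.841), with a mean level of 0.302 ± 0.119 CPM. Of 12 heart mesoderm genes 2 rose and 1 fell in B6 and in WSB, and in B6 Nkx2-5 and Tbx5 were not called (edgeR adjusted p = 0.361 and 0.858). The heart genes called in B6 were Isl1, Actc1 and Myl4, named after their values were seen. Of 10 endothelial genes 3 rose and 1 fell in B6 and 2 rose and 3 fell in WSB, with B6 Pecam1 up by 0.84 ± 0.30 and Cdh5 down, at -1.78 ± 0.45 (edgeR adjusted p = 0.0296 and 0.00353). Of 10 pluripotency genes 7 rose and 1 fell in B6 and 9 rose in WSB. Their summed level ran from 480 to 1350 CPM in B6 controls, 1045 to 2799 in B6 with ID-8, 42.8 to 79.3 in WSB controls and 95.3 to 482 in WSB with ID-8, and Pou5f1 rose by 1.68 ± 0.38 in B6 and 2.74 ± 0.40 in WSB (edgeR adjusted p = 0.00162 and 0.000285). Of 10 mesenchyme genes 8 rose in B6, and in WSB 1 rose and 1 fell, and of 10 trophoblast genes 4 fell in each strain. Neural progenitor and neuron genes fell in 3 of 8 and 5 of 8 cases in B6 and in none of 8 and none of 8 in WSB. The part of these other sources in the member results was not tested.

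At maturation the picture was different for Cubn. With ID-8 Cubn was lower in both strains, Gata4 was higher in both, Foxa2 was lower in WSB and Ttr higher in B6. The libraries of each group came from 2 culture experiments, 2 from each, and the main fit had no term for the experiment. Libraries of 1 experiment tended to deviate together, so they may not be independent replicates. Only 6 members passed the low-count filter. Sox17, Afp and Hnf4a did not and were not tested. In B6 7.71% of 16955 genes were called higher and 9.41% lower, and in WSB 2.86% and 3.03%, beside 2 members higher and 1 lower in B6 and 1 higher and 2 lower in WSB. The median log2 difference over the 6 members was 0.03 in B6 and -0.64 in WSB, against 0.00 over all genes in both.

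Cubn read 4.93, 7.11, 7.89 and 9.38 CPM in the 4 control B6 libraries and 1.51, 2.24, 1.21 and 1.01 with ID-8. In WSB it read 16.4, 12.2, 39.1 and 15.5 CPM in controls and 3.17, 5.3, 2.06 and 2.44 with ID-8. Every ID-8 library lay below every control of its strain, and Cubn fell by 2.30 ± 0.40 on the log2 scale in B6 (edgeR adjusted p = 0.00131) and by 2.67 ± 0.40 in WSB (edgeR adjusted p = 0.00127). Gata4 read 1.43, 1.71, 1.85 and 2.11 CPM in control B6 libraries against 4.3, 4.54, 6.36 and 5.98 with ID-8, and 0.768, 0.843, 1.24 and 1.55 in control WSB libraries against 2.93, 2.48, 3.97 and 2.96. Again no groups overlapped within a strain, and Gata4 rose by 1.57 ± 0.25 in B6 (edgeR adjusted p = 0.000607) and 1.49 ± 0.26 in WSB (edgeR adjusted p = 0.00344). Gata6 did not follow Gata4 here: its log2 difference was -0.65 ± 0.62 in B6 and 0.21 ± 0.59 in WSB (edgeR adjusted p = 0.521 and 0.891).

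Foxa2 read 4.99, 3.49, 6.39 and 4.75 CPM in control WSB maturation cultures and 1.35, 1.8, 1.63 and 1.86 with ID-8. The groups did not overlap, and Foxa2 fell by 1.55 ± 0.22 (edgeR adjusted p = 0.000916), while in B6 it read 3.01, 3.21, 3.08 and 3.28 CPM against 2.79, 1.7, 2.38 and 2.36, a log2 difference of -0.44 ± 0.21 (edgeR adjusted p = 0.172). Ttr in B6 read 0.186, 0.286, 0.088 and 0.13 CPM in controls and 0.727, 0.608, 0.34 and 0.482 with ID-8. All 4 ID-8 libraries were above the controls, with a log2 difference of 1.63 ± 0.49 (edgeR adjusted p = 0.0328), a call lost without any 1 of 6 of the 8 libraries (adjusted p from 0.052 to 0.0934). Hnf4a, below the filter, read 0.682, 0.825, 0.235 and 0.227 CPM in control B6 libraries and 0.0872, 0.064, 0.0243 and 0.076 with ID-8, and Sox17 and Afp were at or under 0.357 CPM in every maturation library.

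Between strains at maturation, control WSB cultures had more Cubn than control B6, by 1.51 ± 0.38 (edgeR adjusted p = 0.0141; 7.38% of genes higher), the opposite direction from progenitors. Without WSB control replicate 3, at 39.1 CPM, the difference was 1.00 and no longer called (edgeR adjusted p = 0.0621). Among ID-8 cultures WSB had less Gata4 (-0.76 ± 0.25, edgeR adjusted p = 0.042) and less Apoa1 (-2.49 ± 0.60, edgeR adjusted p = 0.00898), where 7.97% of genes were lower. Apoa1 read 0.988, 0.576, 0.655 and 0.431 CPM in B6 with ID-8 and 0.237, 0.0376, 0.117 and 0.0689 in WSB with ID-8, without overlap. The Gata4 call was lost without any 1 of 5 of the 8 libraries (adjusted p from 0.0829 to 0.122). The difference between the strains in response to ID-8 was called for 0 of the 6 members, where 0.460% of all genes were called. Foxa2 and Apoa1, the 2 members with an unadjusted p under 0.05, read -1.11 ± 0.31 and -2.0 ± 0.80 (edgeR adjusted p = 0.163 and 0.448), and DESeq2 called 2 genes of the 9, Foxa2 and Hnf4a.

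At the axon stage Gata4, Gata6 and Sox17 were high in some cultures and low in others under every treatment. The deposited table names the culture each library came from, and these culture sets are called B1 to B4 for B6 and W1 to W4 for WSB. Gata4 in uncut B6 controls read 0.567, 0.554, 48.9 and 49.2 CPM in sets B1, B2, B3 and B4, in cut controls 2.61, 0.392, 48.0 and 53.8, and in uncut ID-8 cultures 1.09, 0.63, 80.4 and 92.4. Cut ID-8 cultures of B1, B3 and B4 read 1.76, 99.4 and 109 CPM. Sets B3 and B4 were thus high and B1 and B2 low under every treatment. In WSB, Gata4 read 0.779, 1.49, 0.797 and 4.67 CPM in uncut controls of W1 to W4, 1.59, 0.912, 1.11 and 9.73 in cut controls, 2.26, 0.528 and 9.51 in uncut ID-8 cultures of W1, W2 and W4, and 1.07, 1.41, 1.15 and 56.6 in cut ID-8 cultures, where 1.15 is the library that reads as B6. Set W4 was the highest of the WSB sets in all 4 groups, and it is the set in the third library block, so that set and block cannot be told apart. W4 libraries were on the WSB side in 92 to 96 of the 99 genes higher in WSB, against 98 or 99 in the other WSB libraries apart from the one that reads as B6.

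Gata6 and Sox17 followed the same sets. Gata6 ran from 17.9 to 51.7 CPM in B3, 16.8 to 53.0 in B4 and 2.04 to 22.4 in W4, and was at most 1.65 in B1 and B2 and at most 1.16 in W1 to W3. Sox17 ran from 12.7 to 25.2 CPM in B3, 14.6 to 26.9 in B4 and 0.74 to 11.3 in W4, and all 3 libraries of B2 had 0 Sox17 counts. Foxa2 was 22.5 to 32.4 CPM in B3 and B4, 6.33 to 16.8 in B1 and 1.76 to 3.99 in B2, and in WSB it was highest in W1, where Gata4 and Gata6 were low. Hnf4a stayed between 0.934 and 2.84 CPM in B3 and B4 and at or under 0.777 in every other set, and Apoa1 did not exceed 0.999 CPM in any library. Cubn and Ttr did not follow the sets as closely. Cubn read 22.0 and 22.2 CPM in the B1 controls, near the 24.2 to 30.8 of the B3 and B4 controls, but 5.71 and 7.14 with ID-8 in B1, was 2.5 to 3.43 in B2, and in W4, at 2.22 to 6.61, lay within the 2.09 to 8.26 of W1 to W3. Ttr was 1.43 to 6.47 CPM in B3 and B4 and at most 0.73 elsewhere except in uncut ID-8 cultures of B1, where it read 5.73 CPM from 258 counts against 0 counts in the uncut control.

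The marker sums of other lists differed between the same sets. The 14 primitive and parietal endoderm genes summed to 11948 to 16150 CPM in B3 and 12029 to 15987 in B4, against 2164 to 3745 in B1 and 2664 to 2797 in B2, and to 3347 to 12931 in W4 against 1527 to 4198 in W1 to W3. The 10 endothelial genes summed to 142 to 204 CPM in B3 and B4 and 18.3 to 133 in B1 and B2, the 10 pluripotency genes to 59.7 to 177 and 17.9 to 40.8, and the 8 neuron genes to 3241 to 4255 and 4889 to 6626. The 14 choroid plexus genes, another source of Ttr, summed to 163 to 224 CPM in B3 and B4 and 45.8 to 71.2 in B2, with B1 between them, and to 145 to 219 in W4 and 54.0 to 162 in W1 to W3, leaving out here the library that reads as B6. The 10 trophoblast genes summed to 13.0 to 27.2 and 1.04 to 17.8 CPM in the same B6 sets and to 6.37 to 23.2 and 0.215 to 2.84 in the WSB sets. The 10 mesenchyme genes were highest in B2, at 6828 to 7591 CPM. The 13 hepatocyte genes summed to 5.2 to 6.22 CPM in the controls of B3 and B4 and 10.8 to 12.8 with ID-8, and to 8.98 to 15.3 in B2. The 17 visceral endoderm genes did not follow in B6, where they summed to 490 to 761 CPM in B3 and B4 and 458 to 715 in B1 and B2. In WSB they summed to 4844 to 6480 in W4, 2753 to 3982 in W2, 2513 and 3333 in the W3 controls and 561 to 763 in W1. W2 and the W3 controls thus stood above W1, although Gata4 was low in all of them. A few abundant genes can carry such a sum, and which ones did so was not examined. Alb was at most 0.56 CPM at this stage. The part of these other cells in the set differences was not tested. The library labelled cut WSB with ID-8 in set W3, which reads as B6, had a mesenchyme sum of 7557 CPM. The W3 controls were at 1478 and 1866 and set B2 at 6828 to 7591. Its hepatocyte sum was 19.5 CPM, above the 8.98 to 15.3 of B2.

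**Figure D4:**
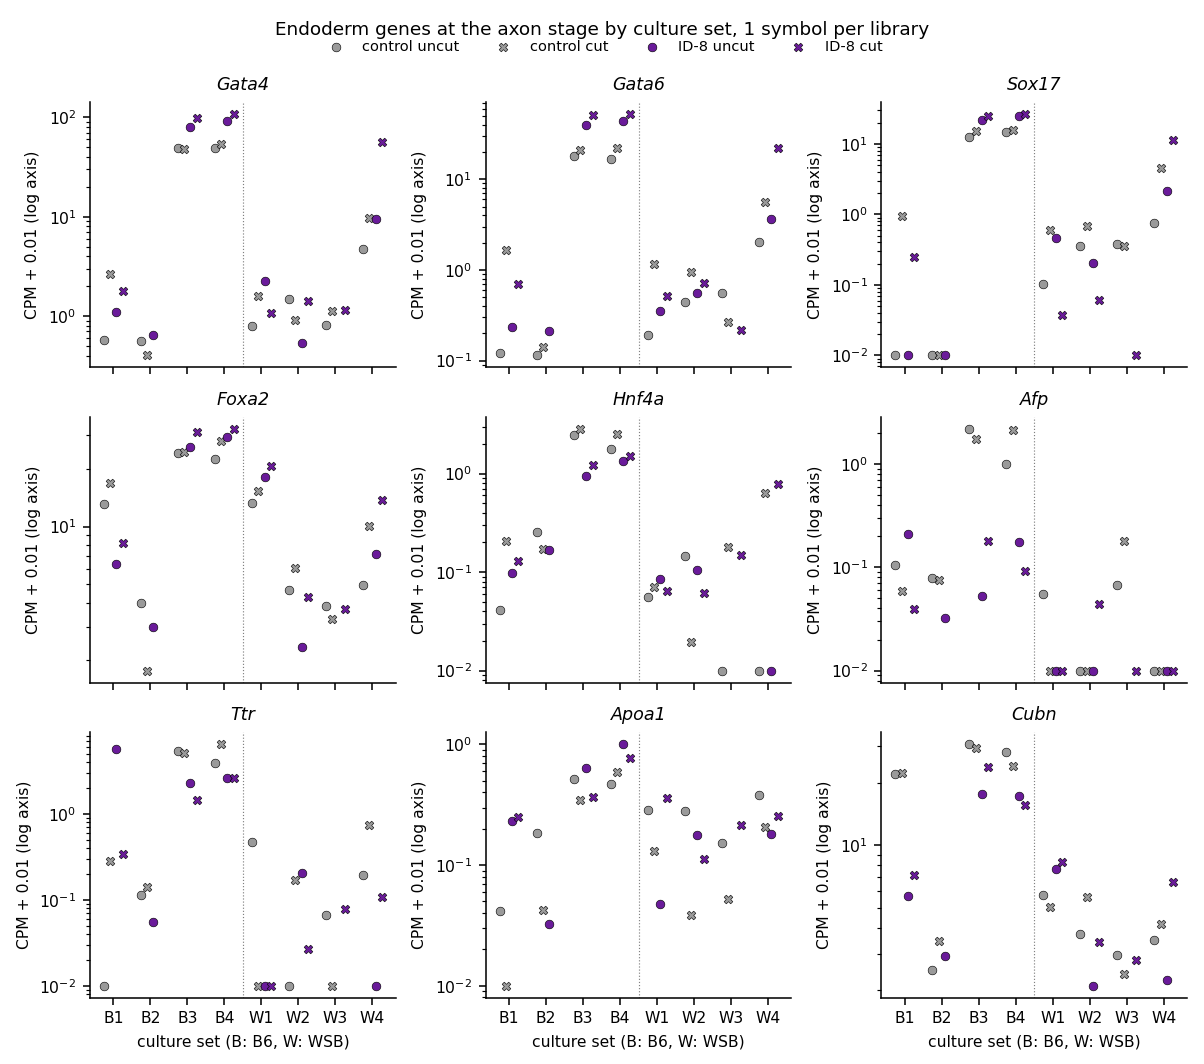
Level of each endoderm gene by culture set at the axon stage (B1 to B4 from B6, W1 to W4 from WSB), as CPM plus 0.01 on a log axis, 1 symbol per library, by treatment and cut; the cut ID-8 symbol of W3 is the library that reads as B6. Gata4, Gata6 and Sox17 are high in B3 and B4 under every treatment and higher in W4 than in W1 to W3.

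No member was called for ID-8 or for cutting at the axon stage in either strain by edgeR, where 0% of 18107 genes were called in each of these 8 contrasts. At an unadjusted p under 0.05 there were 676 to 1378 genes in the 4 ID-8 contrasts and 72 to 1182 in the 4 cut contrasts, and DESeq2 called 34 to 124 and 17 to 35 genes, with 0 members. Without the library that reads as B6, edgeR called 0 or 1 genes and 0 members, with 777 to 1451 and 90 to 808 genes at an unadjusted p under 0.05. Only Afp of the 9 had an unadjusted p under 0.05, with ID-8 in B6: its log2 difference was -2.95 ± 1.29 uncut and -3.33 ± 1.45 cut (edgeR adjusted p = 1.0 for both). The libraries of 1 B6 set deviated together, and with the culture set as a replicate block 221 to 563 genes were called for ID-8 but still 0 members. Without the library that reads as B6, that fit called 313 to 2027 genes for ID-8 and 289, against 1 with it, for cutting in WSB controls, again with 0 members. With that library kept and the culture set as a replicate block, Afp in cut B6 cultures read -3.49 ± 1.13 (edgeR adjusted p = 0.163).

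Within the sets where the genes were high, levels with ID-8 and without it can be set side by side, with 1 library each and no test. In B3 and B4 the ratio of ID-8 to control was 1.65 to 2.07 for Gata4, 2.20 to 2.65 for Gata6, 1.65 to 1.70 for Sox17 and 1.08 to 1.30 for Foxa2 over the 4 pairs. Ttr, Hnf4a and Cubn went the other way in the same pairs, at 0.282 to 0.668, 0.377 to 0.753 and 0.577 to 0.814, whereas Apoa1, from 9 to 37 counts a library, was at 1.06 to 2.19. Afp had 86 counts in the uncut control of B3 and 2 with ID-8, 47 and 10 in the cut pair of B3, 35 and 6 in the uncut pair of B4, and 96 and 4 in its cut pair. In W4 the Gata4 ratio was 2.03 uncut and 5.82 cut.

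Between strains, control WSB cultures had less Cubn than B6 at the axon stage, by 2.37 ± 0.71 on the log2 scale uncut (edgeR adjusted p = 0.0296) and 2.19 ± 0.71 cut (edgeR adjusted p = 0.0374), and less Hnf4a uncut, by 4.75 ± 1.45 (edgeR adjusted p = 0.0317). Of all genes 7.56% were lower uncut and 8.78% cut. Each of these calls was lost without 1 or another library, B3 or B4 among them (Cubn at adjusted p up to 0.122 and Hnf4a up to 0.094), and in the second library block alone, where no member was called. Gata4, with a log2 difference of -4.93 ± 1.68 uncut, was not called (edgeR adjusted p = 0.053), and the culture sets lie within strains, so that set and strain cannot be told apart in these contrasts.

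Stages could be compared only inside the second library block, between control progenitors and uncut control axon cultures, with 7 members tested. In B6 Ttr was higher at the axon stage, by 4.68 ± 1.77 (edgeR adjusted p = 0.035), where 30.3% of genes were higher. The call was lost without any 1 of the 3 progenitor libraries. Without set B3 or B4 Ttr fell below the low-count filter and was not tested, and no other member was called. In WSB Foxa2 fell by 2.01 ± 0.63 (edgeR adjusted p = 0.016), where 29.7% of genes were lower, and the call was lost without progenitor replicate 6 or without set W2 or W3. No other member was called.

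Over all 16 groups, 8 of the 9 members had their largest mean in ID-8 B6 progenitors. For Gata4, Gata6 and Sox17 the next groups were ID-8 B6 axon cultures, cut (70.2 ± 59.5, 35.1 ± 29.8 and 17.4 ± 14.9 CPM, SD) and uncut (43.6 ± 49.6, 21.1 ± 24.2 and 11.5 ± 13.4 CPM), and their ranges overlapped with that of the first. The cut group has no library of the low set B2 and the uncut group has one, so their means do not cover the same culture sets. For Cubn the next were ID-8 WSB progenitors at 33.4 ± 50.6 CPM and control B6 progenitors at 25.0 ± 29.7, also overlapping. Hnf4a had a top group, at 16.4 ± 12.0 CPM, whose range did not overlap with that of the next, cut B6 controls at 1.43. The ranges nearly touched, at 2.86 CPM for the lowest library of the top group and 2.84 for the highest cut control. Foxa2 had its largest mean in control WSB progenitors, at 38.1 ± 18.6 CPM, and its smallest in ID-8 WSB maturation cultures, at 1.66. The smallest means lay at maturation for Gata4 (1.1 CPM, control WSB) and Cubn (1.49 CPM, ID-8 B6), and in control WSB progenitors for Ttr and Apoa1 (0.00978 and 0.0462 CPM).

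**Figure D5:**
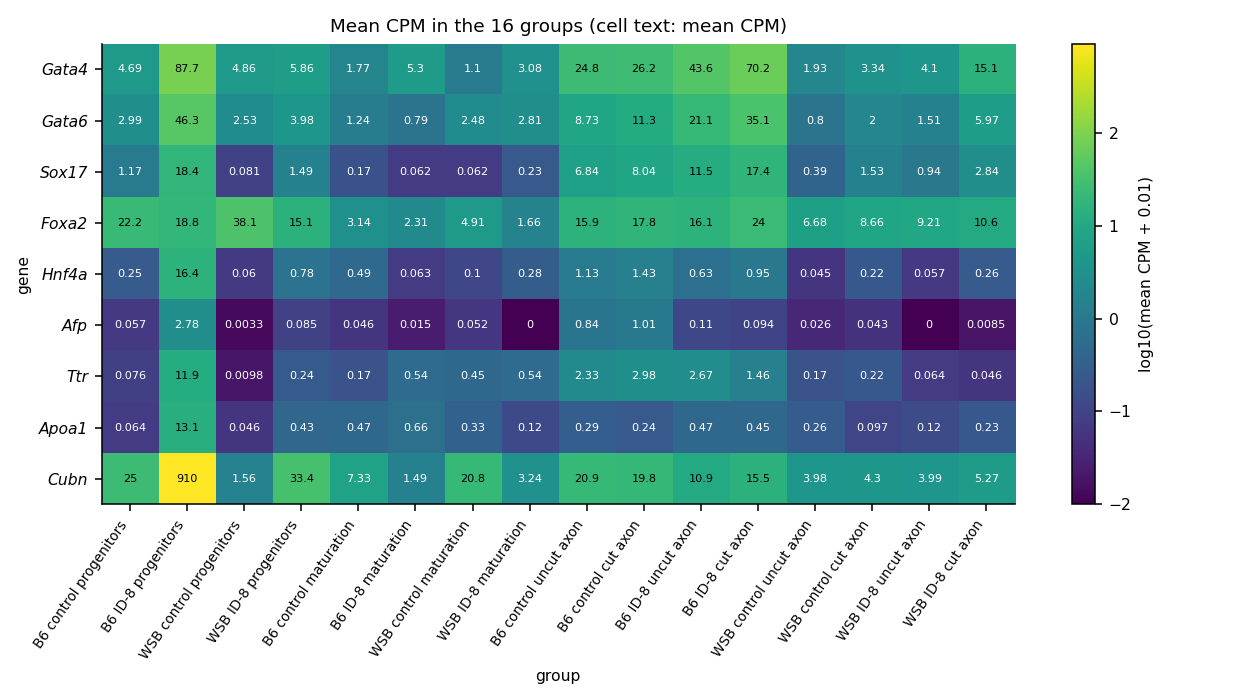
Mean level of the 9 endoderm genes in each of the 16 groups; colour is log10 of mean CPM plus 0.01 and the number in each cell is the mean CPM. Of the 9 genes 8 peak in ID-8 B6 progenitors, and Foxa2 peaks in control WSB progenitors.

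Genes with the most similar profile were ranked by Pearson correlation over the 16 group means on the log2(CPM + 0.5) scale, among 13765 genes, as a description; the groups share library blocks, culture sets and treatment, and without the library that reads as B6 no correlation with a nearest gene named below moved by more than 0.011, and Cubn kept 2 of its 3 nearest genes. The nearest to Gata4 were Pga5 (0.948), Sox17 (0.943) and Srgn (0.942), to Gata6 Pdia5 (0.950), Srgn (0.937) and the laminin Lamb1 (0.933), and to Sox17 Aqp8 (0.972), Pga5 (0.972) and Lamb1 (0.967). Hnf4a was nearest to Clic6 of the choroid plexus list (0.962), Spink1 of the visceral endoderm list (0.956) and Tfec (0.913). Afp was nearest to Hnf4a itself (0.918), Ism1 (0.898) and Slc39a8 (0.893), and Ttr to Klb (0.952), Tfec (0.941) and Dram1 (0.912). Apoa1 was nearest to Soat2 (0.959), the cubilin partner Amn (0.933) and Spink1 (0.923), with Spearman correlations of only 0.521 to 0.557, and Cubn to Zfp819 (0.929), Ifi30 (0.906) and Spink1 (0.905). Foxa2 shared none of these and was nearest to Pxdn (0.951), Lockd (0.950) and Efnb1 (0.936). Among the members, the early factors Gata4, Gata6 and Sox17 correlated with each other at 0.93 to 0.94, and Foxa2 with the others at 0.10 to 0.59.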

How the data were processed

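The authors deposited 1 table of expected counts per gene and sample, which the submitters' processing notes link to Bowtie2, RSEM, featureCounts, limma and GRCm38; versions, annotation and strand setting were not given in the sources used here. Libraries were made with a stranded mRNA kit and read as 2 x 150 bases, per the labels' protocols. Of the deposited expected counts 9.318% were not whole; repeat runs of 6 libraries were summed and the sums rounded, and PCR duplicates are not marked by molecular identifiers.

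Symbols were matched for 37607 of 38924 genes, and genes without one held 0.2652% of the counts. Each stage was fitted with edgeR 4.0.16 in R 4.3.3 (TMM, filterByExpr, robust quasi-likelihood, Benjamini-Hochberg over all genes tested), with the library block as a term at the progenitor and axon stages; the SE is the log2 difference divided by the root of F. Alternatives were DESeq2 1.42.0, RLE size factors, no filter beyond a total of 1 count, first runs, single blocks, replicate blocks and each library left out. Replicate libraries were compared by chi-square per degree of freedom, at least 8.56 in 126 pairs, so none was a copy of another.

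Same-numbered control and ID-8 libraries of the first progenitor block deviated together in 3 of 3 pairs in each strain (correlation of deviations at least 0.108), and axon libraries of 1 culture set, as named in the deposited table, in 21 of 21 pairs in B6 and 19 of 21 in WSB (19 of 19 without the library that reads as B6). Maturation libraries of 1 culture experiment deviated together in 41 of 48 pairs (correlation of deviations from -0.059 to 0.54). Genes and lists were chosen with earlier results of these data known. Named were all 9 members, the first 4 tested genes of each endoderm list and the 3 most similar genes by correlation. Genes named from the other lists were not always the first listed, as with Kl of the choroid plexus list. Of the hepatocyte list 1 gene is not reported here. Fits were tested on simulated data. Figures were drawn with matplotlib 3.10.9.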

Additional observations from a re-analysis of the deposited data

Results flagged for a closer look

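A sample stood far from the others of its group, by Dixon's criterion, in 15 of the 78 gene and group combinations that could be checked. For normal and independent values chance alone flags about 1 in 20. The CPM values were not log-transformed and the genes share libraries, so the count cannot be measured against that rate. The library of ID-8 WSB progenitor replicate 2 was far above its group for Gata4 (15.5 CPM), Gata6 (7.59), Apoa1 (1.64) and Cubn (133). Culture set W4 stood above the other WSB sets in cut controls for Gata4 (9.73 CPM), Gata6 (5.64) and Sox17 (4.52) and in cut ID-8 cultures for Gata4 (56.6), Gata6 (22.4) and Sox17 (11.3); the cut ID-8 group includes the library that reads as B6, and without it the group is too small for this criterion. Set W1 stood above the other uncut WSB controls for Foxa2 (13.3 CPM). Cubn stood out in control B6 progenitor replicate 6 (81.6 CPM, high), control WSB progenitor replicate 3 (0.936, low) and control WSB maturation replicate 3 (39.1, high), and Gata6 in control B6 maturation replicate 2 (2.19 CPM, high).

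The response to ID-8 differed between the strains at the progenitor stage for Gata4 (-3.97, WSB minus B6 on the log2 scale) and Gata6 (-3.30), by the interaction term of the edgeR fit.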

How the results depend on the processing

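In ID-8 against control B6 progenitors 7 or 8 members were called under all alternatives run, and 8 without each single library. In WSB progenitors the count of 4 became 2 in the first block, 0 in the second and 2 in the first with the replicate block, and ran from 2 to 4 with single libraries left out. Foxa2 in WSB was no longer called without the filter (adjusted p = 0.0724) or without the library block term (0.0583), and Foxa2 and Hnf4a not in the second block with culture pairs (0.0618 and 0.0912). The control strain contrast of 2 became 1 in the first block. The interaction of 2 became 0 in each block alone and 0 with the replicate block, stayed at 2 with any library left out, and was 3 (Gata4, Gata6 and Apoa1) with culture pairs as a replicate block over both blocks, an alternative chosen after seeing the data; in the second block same-culture pairs deviated together in 2 of 3 cases in each strain.

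At maturation the control strain contrast of 1 became 3 by DESeq2, 2 with RLE factors and 4 with the culture experiment as a replicate block (0 to 3 with a library left out), the ID-8 strain contrast of 2 became 5 by DESeq2 and 1 without the filter (1 to 4), and the interaction of 0 became 2 by DESeq2 (0 to 1). The ID-8 counts of 3 ran from 2 to 4 in B6 and stayed at 3 in WSB.

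At the axon stage the uncut strain contrast of 2 became 5 by DESeq2 and 0 in the second block (0 to 3 with a library left out), and the cut one of 1 became 6 by DESeq2, 0 without the filter and 0 in the second block (0 to 4). The ID-8 and cut contrasts had 0 members under every alternative run; the library of W3 that reads as B6, left out with the culture set as a replicate block, brought Afp in cut B6 cultures to an edgeR adjusted p of 0.0707. Between stages the count of 1 became 2 in B6 by DESeq2 and 2 without the filter, and 2 in WSB by DESeq2, without the filter and with first runs (0 to 2 in each). No result reversed direction, and the cause of the changes was not tested. Culture sets lie within strains, so no block of them could be fitted for the strain contrasts. Members near the floor of 3 counts (Ttr, Afp and Apoa1 in controls) are limited by depth.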
